A study of Mus musculus with 48 samples.

Results

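The 3 arrays of C2C12 cells after 12 h of differentiation were compared with 3 arrays of the same line at 0 h. These 6 are among the 48 arrays of a time course in which the labels name 16 groups of 3. C2C12 is an established line of mouse myoblasts, the mononucleated precursors that fuse into multinucleated muscle fibres. The 0 h cells were in growth medium, DMEM with 20% fetal bovine serum, at the moment of induction, and the 12 h cells had been moved to DMEM with 2% horse serum and kept there for 12 h. Neither group received cycloheximide or carries a genetic change named in the labels. Each replicate was a separate growth from one of several successive passages, so the 3 replicates are cultures of one line and not of separate animals. The labels name no cells left in growth medium for 12 h after the start, so the change of medium and 12 h of further culture cannot be told apart.

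Myogenic differentiation is driven by basic helix-loop-helix factors of the Myod1 family, which bind E-box DNA together with E proteins and act with the Mef2 factors on muscle genes. Id proteins are helix-loop-helix proteins without a DNA-binding region. They take up the E proteins, are abundant in growing myoblasts, and are lowered as the cells differentiate. Withdrawal from the cell cycle through inhibitors of cyclin-dependent kinases, membrane fusion and assembly of the sarcomere, the contractile unit of thick and thin filaments, follow.

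Promoter sequence is shown for 5 risen genes and 1 fallen gene, to show where sites of the kinds bound by muscle transcription factors lie in risen genes, beside a fallen gene that has none. Each window runs from 250 bases before to 50 bases after the start of the gene, 300 bases in all, from RefSeq on GRCm38.p6, and is written 5′ to 3′ on the strand of the gene. Windows were available for 13 of the 20 risen genes of largest change. Capitals mark a match to an E-box (CANNTG), to the MEF2 site or to the CArG box, the site of serum response factor, searched on both strands. None of the capital stretches overlaps another.
Actc1 lies at chr2:114052826-114053125 on the minus strand, Acta1 at chr8:123894726-123895025 on the minus strand, Srpk3 at chrX:73774155-73774454 on the plus strand, Klhl41 at chr2:69669870-69670169 on the plus strand, Casq2 at chr3:102086165-102086464 on the plus strand and Id3 at chr4:136143572-136143871 on the plus strand.
Actc1: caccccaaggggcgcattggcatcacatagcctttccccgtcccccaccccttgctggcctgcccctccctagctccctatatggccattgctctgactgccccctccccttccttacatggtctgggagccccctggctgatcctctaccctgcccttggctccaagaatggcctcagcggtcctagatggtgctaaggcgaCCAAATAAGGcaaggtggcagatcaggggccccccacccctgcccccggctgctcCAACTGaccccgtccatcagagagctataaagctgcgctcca
Acta1: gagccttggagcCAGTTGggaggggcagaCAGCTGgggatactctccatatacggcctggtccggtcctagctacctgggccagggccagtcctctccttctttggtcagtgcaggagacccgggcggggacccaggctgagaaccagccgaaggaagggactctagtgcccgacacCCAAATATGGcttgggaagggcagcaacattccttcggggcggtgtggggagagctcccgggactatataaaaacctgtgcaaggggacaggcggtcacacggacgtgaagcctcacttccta
Srpk3: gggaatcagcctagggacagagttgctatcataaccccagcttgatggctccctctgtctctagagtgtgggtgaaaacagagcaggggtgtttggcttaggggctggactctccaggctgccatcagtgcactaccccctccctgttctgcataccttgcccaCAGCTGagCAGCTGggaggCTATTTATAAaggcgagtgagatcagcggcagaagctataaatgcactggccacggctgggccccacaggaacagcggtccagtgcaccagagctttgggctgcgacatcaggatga
Klhl41: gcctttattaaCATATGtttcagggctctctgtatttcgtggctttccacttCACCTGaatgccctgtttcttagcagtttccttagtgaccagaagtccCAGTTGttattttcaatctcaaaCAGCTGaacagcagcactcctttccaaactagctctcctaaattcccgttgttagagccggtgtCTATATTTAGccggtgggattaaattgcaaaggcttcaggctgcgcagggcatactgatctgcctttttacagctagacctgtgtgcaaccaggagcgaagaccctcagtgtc
Casq2: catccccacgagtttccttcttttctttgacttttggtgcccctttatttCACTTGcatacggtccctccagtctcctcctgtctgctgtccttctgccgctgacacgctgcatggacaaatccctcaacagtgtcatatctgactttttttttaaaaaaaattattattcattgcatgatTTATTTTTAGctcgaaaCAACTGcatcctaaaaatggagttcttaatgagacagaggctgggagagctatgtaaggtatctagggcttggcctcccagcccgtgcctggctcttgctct
Id3: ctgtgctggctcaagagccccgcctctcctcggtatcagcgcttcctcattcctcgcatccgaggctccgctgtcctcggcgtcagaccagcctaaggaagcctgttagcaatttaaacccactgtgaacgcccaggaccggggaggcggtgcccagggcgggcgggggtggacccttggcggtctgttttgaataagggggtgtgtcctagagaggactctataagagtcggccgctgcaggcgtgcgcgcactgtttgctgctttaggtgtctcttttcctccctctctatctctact
Both actin windows hold a CArG box upstream of the start, CCAAATAAGG at 47 to 38 bases in Actc1 and CCAAATATGG at 73 to 64 bases in Acta1. Acta1 also holds 2 E-boxes, and the Actc1 window holds 1 E-box just after the start. Srpk3, which encodes a muscle kinase of splicing factors, holds a pair of CAGCTG E-boxes at 86 to 81 and 78 to 73 bases upstream, followed by a MEF2 site, CTATTTATAA, at 67 to 58 bases. Klhl41 holds 4 E-boxes and the MEF2 site CTATATTTAG at 63 to 54 bases, and Casq2 holds 2 E-boxes and the MEF2 site TTATTTTTAG at 69 to 60 bases. The Id3 window holds none of these letters.

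The share of windows with each motif is given as a description. An E-box of any kind was in 67.5% of the 18109 windows of genes tested, in 76.5% of the 243 windows of risen genes and in 61.6% of the 323 windows of fallen genes. These windows belong to 14452, 162 and 230 genes, so genes with several windows count more than once. The CAGCTG form was in 16.4% of the windows of genes tested, 28.0% of those of risen genes and 13.6% of those of fallen genes. A MEF2 site was in 2.1%, 8.64% and 2.48% of the same sets, and a CArG box in 1.35%, 1.65% and 1.55%. Of the 13 windows of the risen genes of largest change, 10 held an E-box, 5 held CAGCTG, 4 a MEF2 site and 2 a CArG box. Of the 18 windows of the fallen genes of largest change, 12 held an E-box, 2 held CAGCTG, 1 a MEF2 site and 0 a CArG box, so Id3, without an E-box, was in the smaller part of that set. A match to these letters is not evidence that a factor was bound.

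All values are log2 levels from RMA, which removes background, puts the arrays on a common scale and reduces the probes of a set to 1 level. A single probe set stood for each of 18193 genes. The 6 arrays had medians of 4.01 to 4.12 on this scale. Correlations ran from 0.9917 to 0.9958 among the 0 h arrays, from 0.9917 to 0.9949 among the 12 h arrays and from 0.9867 to 0.9929 between the groups. Differences are 12 h minus 0 h with standard errors (SE) from limma, fitted to all 48 arrays, and n = 3 arrays in each group. A gene was called risen or fallen at a Benjamini-Hochberg adjusted p under 0.05 over the 18193 genes. Muscle lineage markers were present on the 0 h arrays, with Myod1 at 10.05 ± 0.40, Des, the muscle intermediate filament desmin, at 10.83 ± 0.33, Cdh15 at 8.83 ± 0.32 and Pax7 at 8.36 ± 0.09 (SD, n = 3). Lists of markers for 6 other kinds of cells, 67 genes in all, gave 0 calls by limma and 11 unadjusted p values under 0.05, where 2449 of all 18193 genes had one. Blocking on replicate number gave 6 calls. The list for smooth muscle and stress fibres is not specific to other cells, since it holds Des, and Tpm1 and Tpm2 of the thin filament list.

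At 12 h, 13 of 24 measured genes of the thin filament, 9 of 24 of the thick filament and 11 of 31 of the Z-disc were higher, and 3 of the 4 Id genes and 5 of 30 growth factors and receptors were lower. In all, 513 genes were called (2.82% of those tested), 216 risen (1.19%) and 297 fallen (1.63%). The rises were larger: 85 risen genes and 48 fallen genes passed 2-fold, with a median of 0.83 among the risen and -0.69 among the fallen. The largest rise was 3.50 and the largest fall -1.99, while the median over all genes was 0.02. The 3 arrays of one group lay apart from the 3 of the other for 510 of the 513, against 20.2% of all genes (8.95% with the 12 h arrays above and 11.2% with them below). The exceptions were Axin2, Nxpe3 and a predicted gene, of which Nxpe3 was chosen after its values were seen. The 513 were called on these same arrays, so the groups lying apart is no separate evidence for the calls. All 513 had the same sign in each of the 3 replicate numbers, which for the 510 follows from the groups lying apart. In these bulk RNA samples, fewer cells with a transcript and less transcript in each cell cannot be told apart.

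The number of calls moved with the fit and with single arrays. Blocking on the replicate number gave 1149 calls (6.32%), 483 risen (2.65%) and 666 fallen (3.66%), and all 513 were among them. Leaving out 1 array gave 195 calls for 0 h replicate 2, 227 for 12 h replicate 3 and 292 for 0 h replicate 3, and 131 genes kept their call whichever of the 6 arrays was left out. All omissions here and below were fitted without the block, and each kept the array of the same number in the other group. How calls with the block move when an array is left out was not tested. Rises came to 76 for 0 h replicate 2, 120 for 0 h replicate 3, 125 for 12 h replicate 3 and 131 for 12 h replicate 1, and falls to 102 for 12 h replicate 3, 119 for 0 h replicate 2, 172 for 0 h replicate 3, 176 for 12 h replicate 2 and 178 for 0 h replicate 1. The split between directions moved with the scaling: 42.1% of calls were rises as deposited, 49.3% after cyclic loess, 53.7% after a further quantile normalization and 63.4% with each array centred on housekeeping genes, which shifted the median of all genes from 0.02 to 0.09. A fit to the 6 arrays alone gave 520 calls, of which 31.9% were rises and 352 were among the 513.

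**Figure D1:**
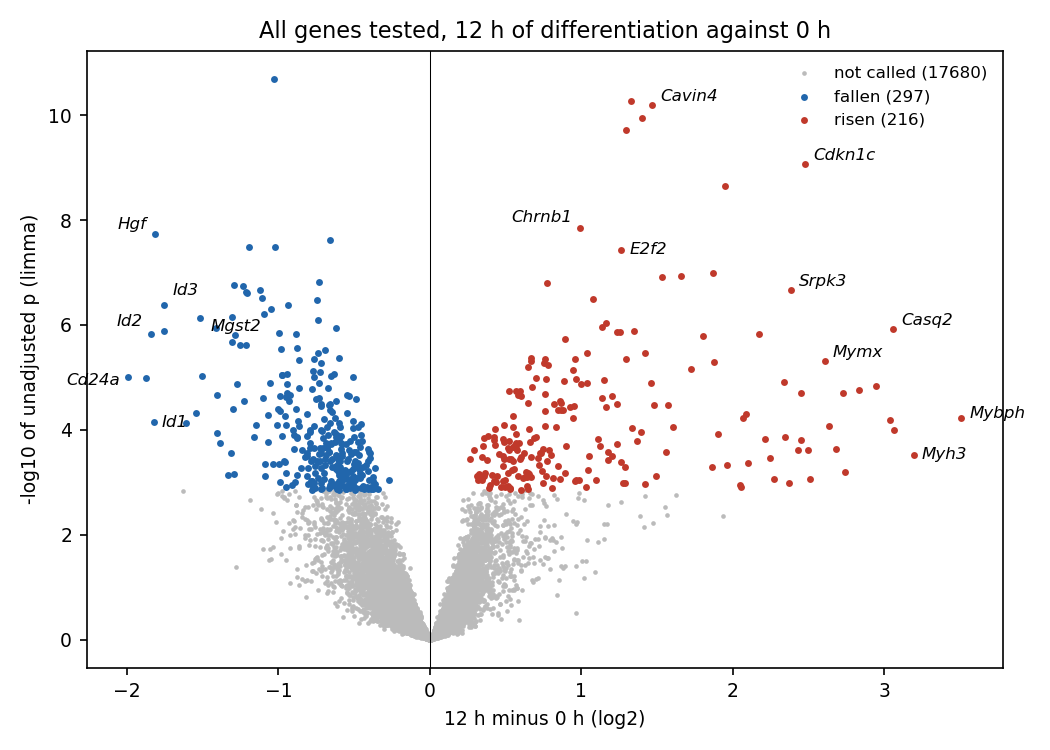
Each point is 1 of the 18193 genes, with the log2 difference of 12 h minus 0 h on the x axis and -log10 of limma's unadjusted p on the y axis. The 216 risen genes (red) reach 3.50 and the 297 fallen genes (blue) reach -1.99, and genes of the contractile apparatus such as Mybph and Myh3 lie far to the right at moderate p.

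Genes of the thick filament, the myosin-based filament of the sarcomere, were among the largest rises. Of 24 measured genes of the thick filament and M-band list, 9 rose and 0 fell, where 1.19% of all genes rose, and the median difference was 0.73 against 0.02 over all genes. Mybph, which encodes myosin-binding protein H, measured 7.90, 5.52 and 6.42 at 0 h and 10.94, 9.28 and 10.13 at 12 h for replicates 1, 2 and 3. All 3 arrays at 12 h were above all 3 at 0 h, and the rise of 3.50 (SE 0.77, adjusted p = 0.00651) was 11.3-fold. Myh3, the embryonic myosin heavy chain, measured 7.06, 4.65 and 6.02 at 0 h and 9.92, 8.30 and 9.09 at 12 h and rose by 3.19 (SE 0.80, adjusted p = 0.0185), again with no overlap. Myl4, a myosin light chain of embryonic muscle, measured 6.80, 5.41 and 6.25 at 0 h and 10.003, 8.15 and 9.15 at 12 h and rose by 2.95 (SE 0.59, adjusted p = 0.00262). Myh1, a fast adult heavy chain, rose by 3.06 (SE 0.70, adjusted p = 0.00947). Its other probe sets differed by 3.29 and 0.16. Mylpf, the fast regulatory light chain, rose by 2.45, and Myom2, a protein of the M-band that links thick filaments, by 2.21 (adjusted p = 0.0125 and 0.0119). The count of risen members came to 1 when 0 h replicate 2 was left out, 2 for 12 h replicate 1 and 4 for 12 h replicate 3. Of the 6 genes named here, Myl4 kept its call without any 1 array, and the largest adjusted p over the omissions was 0.0826 for Mybph, 0.176 for Myh3, 0.0943 for Myh1, 0.152 for Mylpf and 0.164 for Myom2. Omitting 0 h replicate 2 ended each of these 5 calls, omitting 12 h replicate 1 those of Myh3, Myh1, Mylpf and Myom2, omitting 12 h replicate 3 those of Myh3, Mylpf and Myom2, and omitting 0 h replicate 3 that of Myh3. These omissions were fitted without the replicate block. With the block over all 48 arrays, limma's adjusted p was 6.58e-06 for Mybph, 5.62e-06 for Myh3 and 2.20e-06 for Myh1. For Mylpf and Myom2 it was 6.24e-05 and 1.84e-05.

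Both actins of striated muscle and several subunits of troponin, the calcium switch of the thin filament, rose. In the thin filament list 13 of 24 measured genes rose and 0 fell, with a median difference of 1.36, and 11 were not called. Klhl41, a kelch protein of the thin filament whose promoter is printed above, measured 6.84, 4.97 and 6.23 at 0 h and 9.47, 8.28 and 8.78 at 12 h and rose by 2.83 (SE 0.57, adjusted p = 0.00297). Tnni2, the fast troponin I, rose by 2.73 (SE 0.56, adjusted p = 0.00325), and Tnnc2, the fast troponin C, by 2.68 (SE 0.66, adjusted p = 0.0157). Both isoforms of troponin C were higher, since Tnnc1, of slow and cardiac muscle, rose by 2.49 (SE 0.61, adjusted p = 0.0160). Actc1, the cardiac actin that young skeletal muscle also makes, measured 11.03, 8.48 and 9.51 at 0 h and 12.74, 11.75 and 12.06 at 12 h. Acta1, the skeletal actin, measured 10.79, 8.98 and 9.71 at 0 h and 12.77, 11.79 and 12.21 at 12 h. For both actins the lowest 12 h array lay above the highest 0 h array, and the rises were 2.51 (SE 0.69, adjusted p = 0.0372) and 2.43 (SE 0.60, adjusted p = 0.0160). Tnnt3, the fast troponin T, rose by 2.37 (SE 0.66, adjusted p = 0.0408). Omitting 1 array left 2 risen members for 0 h replicate 2, 4 for 12 h replicate 1, 5 for 12 h replicate 3 and 6 for 0 h replicate 3. Klhl41 and Tnni2 lost their calls only without 0 h replicate 2 (adjusted p = 0.0565 and 0.0513). Tnnc2, Tnnc1, Acta1 and Tnnt3 lost theirs without 12 h replicate 1, 12 h replicate 3 or 0 h replicate 2, Tnnc1, Acta1 and Tnnt3 also without 0 h replicate 3, and Actc1 without any of the arrays but 0 h replicate 1, with adjusted p up to 0.181 for Tnnc2, 0.155 for Tnnc1, 0.154 for Acta1, 0.248 for Tnnt3 and 0.282 for Actc1. With trend and robust moderation the calls of Actc1 and Tnnt3 were lost.

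Proteins of the Z-disc, where thin filaments are anchored, and of the costamere, which ties it to the membrane, gave 11 rises and 0 falls among 31 measured genes, with a median difference of 0.55. Smpx, a small stretch-responsive muscle protein, measured 4.77, 3.50 and 4.67 at 0 h and 8.45, 6.39 and 7.21 at 12 h and rose by 3.04 (SE 0.67, adjusted p = 0.00708). Itgb1bp2, the integrin-binding protein melusin, measured 4.35, 3.54 and 4.05 at 0 h and 7.62, 5.51 and 6.15 at 12 h and rose by 2.45 (SE 0.50, adjusted p = 0.00322). Replicate 1 at 12 h was the highest array for both. Myoz2, a calcineurin-binding protein of the Z-disc, measured 4.55, 4.22 and 4.67 at 0 h and 7.24, 5.71 and 7.02 at 12 h and rose by 2.18 (SE 0.38, adjusted p = 0.000583), and its call held without any 1 array. Synpo2l, an actin-associated Z-disc protein, rose by 2.06 (SE 0.45, adjusted p = 0.00654). Csrp3, the muscle LIM protein, and Actn2, the sarcomeric alpha-actinin, rose by 1.42 and 1.29 (adjusted p = 0.0420 and 0.0408), but neither was called with only the 6 arrays compared or with trend and robust moderation. The count of risen members was 5 when either 0 h replicate 2 or 12 h replicate 1 was left out. Smpx lost its call without either of these, Itgb1bp2 without 12 h replicate 1 and Synpo2l without 0 h replicate 2, with adjusted p of 0.0784, 0.0504 and 0.0912 at most. Csrp3 and Actn2 lost theirs also without 0 h replicate 3, and Csrp3 without 12 h replicate 3 (up to 0.254 and 0.288).

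**Figure D2:**
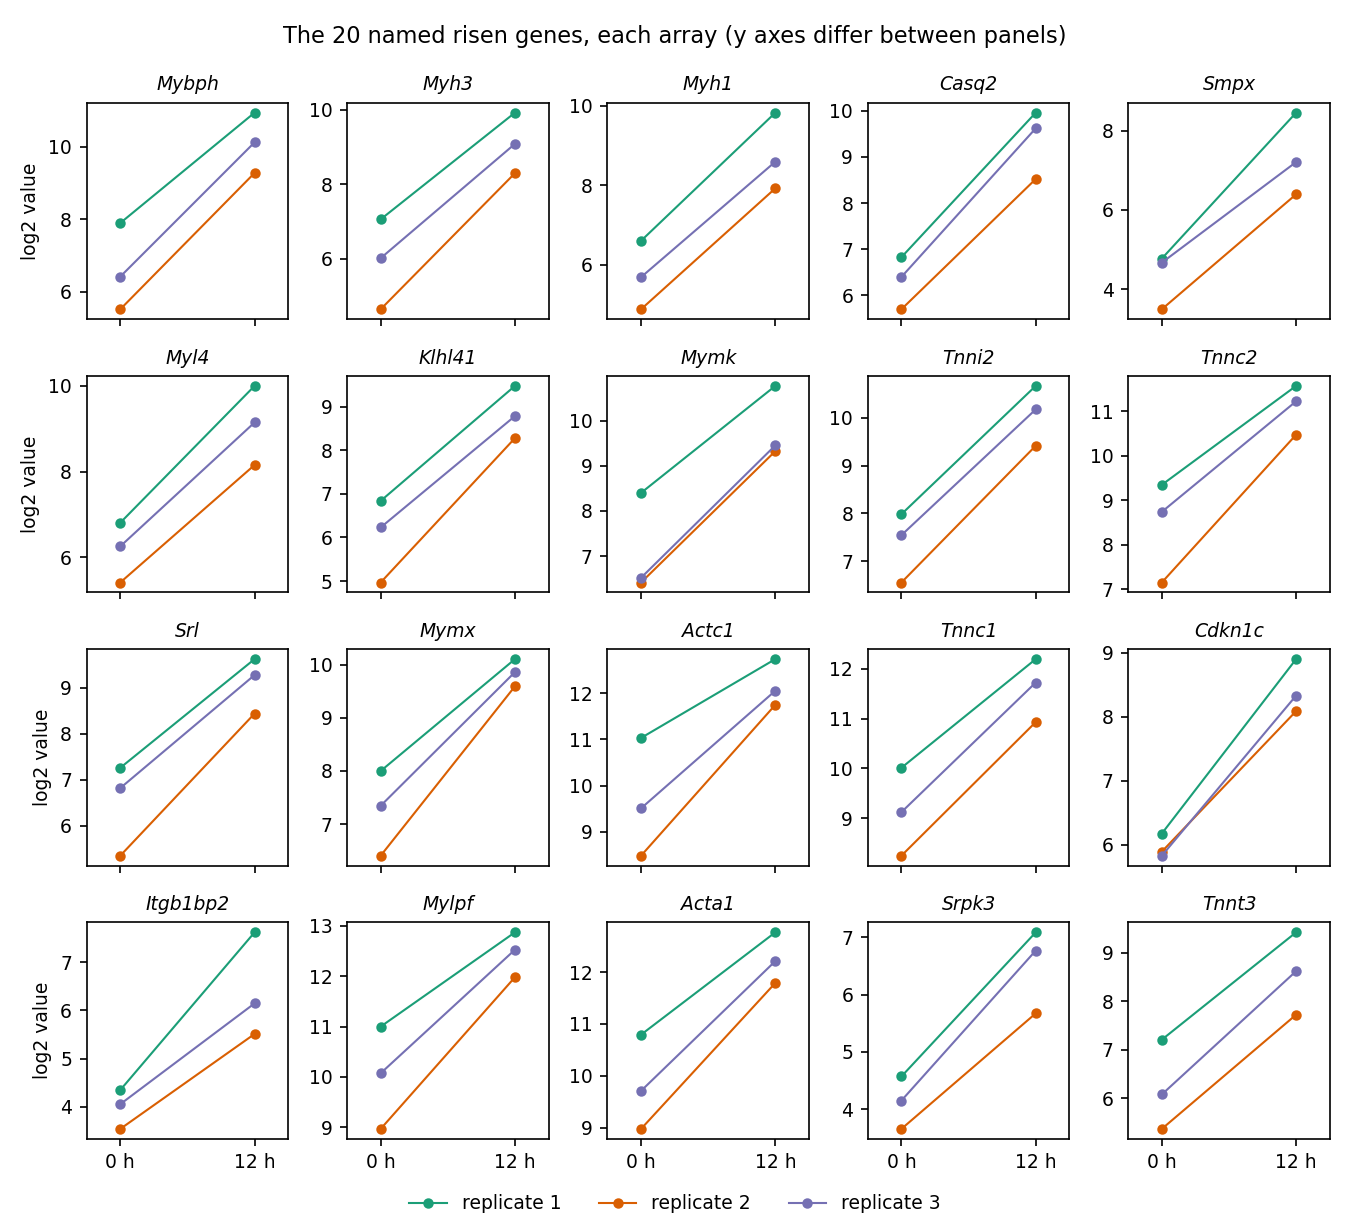
Log2 level of the 20 risen genes of largest change on each array, with 0 h and 12 h on the x axis, 1 colour per replicate number and lines joining arrays of the same number. These genes were chosen among called genes whose groups did not overlap, so all 3 lines rise in every panel. The 12 h points lie above the 0 h points for the same reason. Replicate 1 is highest and replicate 2 lowest at both times in 19 of the 20 panels.

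The plot of the risen genes by array also shows an order of the replicate numbers. Replicate 1 was highest, replicate 3 intermediate and replicate 2 lowest in both groups for 19 of the 20 genes of largest rise (the exception was Cdkn1c, in which 0 h replicate 3 was the lowest), for 72 of all 216 risen genes (33.3%) and for 550 of all genes tested (3.02%). None of the 20 genes of largest fall had this order in both groups. The median level of the 20 risen genes was 4.51 at 24 h before induction, 6.39 at 0 h and 9.24 at 12 h. All 20 were lower at 24 h before induction than at 0 h, with growth medium at both times. The same held for 172 of all 216 risen genes and 178 of all 297 fallen genes. Actc1 stood at 5.31, 9.67 and 12.18 at the successive times, and Tnnc2 at 4.25, 8.41 and 11.09. The change before induction was not tested.

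Genes of calcium handling and of the nerve contact also rose. In the excitation-contraction coupling list, which covers the release and storage of calcium, 3 of 22 measured genes rose and 0 fell, or 8 with the replicate number as a block, and the median was 0.43. Casq2, a calsequestrin that holds calcium in the sarcoplasmic reticulum, measured 6.83, 5.70 and 6.40 at 0 h and 9.96, 8.52 and 9.62 at 12 h. The groups were far apart, and the rise of 3.06 (SE 0.53, adjusted p = 0.000556), or 8.32-fold, held without any 1 array. The only Casq2 probe set is marked for possible cross-hybridisation, so Casq2 had no value when such probe sets were left out. Srl, the reticulum protein sarcalumenin, rose by 2.64 (SE 0.60, adjusted p = 0.00844), and Hrc, a calcium-binding protein of the same compartment, by 1.20 (SE 0.30, adjusted p = 0.0186). Omitting 0 h replicate 2 or 12 h replicate 1 ended the calls of Srl and Hrc, and omitting either replicate 3 that of Hrc (adjusted p up to 0.119 and 0.109), and each of the first 2 omissions left 1 rise in the list. Among 14 measured genes of the acetylcholine receptor and synapse list, 4 rose and 0 fell, or 6 rises with the block. Chrnb1, the beta subunit of the muscle receptor, measured 8.02, 7.77 and 7.94 at 0 h and 9.06, 8.84 and 8.81 at 12 h, a narrow spread in both groups, and rose by 0.99 (SE 0.14, adjusted p = 3.26e-05). Chrnd, the delta subunit, rose by 0.75 (SE 0.21, adjusted p = 0.0408), and Chrna1, the alpha subunit, by 0.39 (SE 0.09, adjusted p = 0.0111). Dok7, the adaptor that activates the kinase MuSK, rose by 1.11 (SE 0.26, adjusted p = 0.0119). The Chrnb1 call held without any 1 array. Chrnd lost its call without any one of the 6 arrays, and Chrna1 and Dok7 lost theirs without 12 h replicate 1, 0 h replicate 2 or 0 h replicate 3 (adjusted p up to 0.189 for Chrnd, 0.132 for Chrna1 and 0.0902 for Dok7), and the count of risen members was 1 without each of these. Chrna1 was not called with only the 6 arrays compared, and Dok7 not on its probe set without a cross-hybridisation mark.

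The 2 proteins that merge myoblast membranes were both among the largest rises. Mymk, myomaker, measured 8.40, 6.42 and 6.52 at 0 h and 10.77, 9.32 and 9.45 at 12 h and rose by 2.74 (SE 0.73, adjusted p = 0.0301). Mymx, the small protein myomerger, measured 7.999, 6.40 and 7.34 at 0 h and 10.11, 9.59 and 9.86 at 12 h, with the 3 arrays at 12 h within a narrow range, and rose by 2.60 (SE 0.49, adjusted p = 0.00131) or 6.08-fold. In the whole fusion and adhesion list 6 of 37 measured genes rose and 2 fell, and the median was -0.02. The muscle caveolar proteins Cavin4 and Cav3 rose. Cavin4 measured 8.37, 7.86 and 8.05 at 0 h and 9.79, 9.32 and 9.56 at 12 h and rose by 1.47 (SE 0.16, adjusted p = 3.95e-07), and Cav3 rose by 1.42 (SE 0.26, adjusted p = 0.00105). Adhesion molecules of myoblasts moved in both directions: Cdh15, M-cadherin, rose by 1.04 (SE 0.21, adjusted p = 0.00243) and Itga7, a laminin receptor, by 0.86 (SE 0.18, adjusted p = 0.00392), while Neo1, the receptor neogenin, fell by 0.76 and Ncam1, the neural cell adhesion molecule, by 0.50. These 2 falls were outside the naming rule and named after their values were seen. Neither was called with the arrays centred on housekeeping genes, and leaving out any 1 array left at most 1 of them. Dag1, dystroglycan, was the single rise among 12 measured genes of the dystrophin complex, by 0.67 (SE 0.12, adjusted p = 0.00126). The calls of Mymx, Cavin4, Cav3, Cdh15, Itga7 and Dag1 held without any 1 array. Mymk lost its call without replicates 1 or 3 at 12 h or replicates 2 or 3 at 0 h (adjusted p up to 0.179).

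Among 26 measured genes of muscle energy metabolism 3 rose and 0 fell, or 6 rose and 1 fell with the replicate number as a block. Ckm, muscle creatine kinase, measured 6.20, 5.11 and 5.19 at 0 h and 8.70, 7.24 and 7.60 at 12 h and rose by 2.35 (SE 0.55, adjusted p = 0.0115). A second Ckm probe set differed by -0.09. Apobec2, a muscle member of the cytidine deaminase family, rose by 1.72 (SE 0.33, adjusted p = 0.00168), and Pgam2, the muscle phosphoglycerate mutase of glycolysis, by 1.48 (SE 0.31, adjusted p = 0.00436). Srpk3 measured 4.57, 3.66 and 4.15 at 0 h and 7.09, 5.67 and 6.77 at 12 h and rose by 2.38 (SE 0.37, adjusted p = 0.000181). Its other 3 probe sets differed by 0.72, 0.09 and 0.07, and its call rested on a probe set marked for possible cross-hybridisation. Apobec2 and Srpk3 kept their calls without any 1 array. Ckm and Pgam2 lost theirs without 12 h replicate 1 or 0 h replicate 2, and Ckm also without 0 h replicate 3 (adjusted p up to 0.0833 and 0.0621), so that 1 member of the list was called when either of the first 2 was omitted.

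Few of the myogenic transcription factors themselves were called. Of 23 measured, 2 rose and 0 fell, or 5 and 1 when blocked on replicate number. Smyd1, a muscle-specific histone methyltransferase, rose by 1.57 (SE 0.33, adjusted p = 0.00434), and Vgll2, a cofactor of the TEAD factors, by 0.48 (SE 0.13, adjusted p = 0.0254). The 6 probe sets of Smyd1 differed by 0.08 to 2.31. Omitting 12 h replicate 1 or 0 h replicate 2 ended both calls, and omitting either replicate 3 or fitting the 6 arrays alone ended that of Vgll2 (adjusted p over the omissions up to 0.0668 and 0.161). Myog, the factor of terminal differentiation, measured 11.42, 9.32 and 9.71 at 0 h and 12.50, 11.87 and 11.88 at 12 h. The 12 h arrays lay above the 0 h arrays, but the 0 h arrays were widely spread, with replicate 1 highest, and the difference of 1.93 (SE 0.64, adjusted p = 0.103) did not pass the threshold. Without 0 h replicate 1 it was called (adjusted p = 0.0377). With the block its adjusted p was 0.00388. Myod1, the determining factor of the lineage, measured 10.44, 10.07 and 9.64 at 0 h and 10.05, 9.87 and 9.45 at 12 h, with overlapping groups and a difference of -0.26 (SE 0.28, adjusted p = 0.764). Myf5, the related early factor, measured 8.15, 8.42 and 8.47 at 0 h and 7.61, 7.06 and 7.46 at 12 h, all lower at 12 h, with a difference of -0.97 (SE 0.35, adjusted p = 0.152) and an adjusted p of 0.0460 with the block. Mef2c, which acts with them on sarcomere genes, measured 4.77, 4.60 and 4.73 at 0 h and 6.33, 5.03 and 5.64 at 12 h, and its difference of 0.97 (SE 0.45, adjusted p = 0.333) was not called. It passed with the block on only the 6 arrays compared (adjusted p = 0.0260).

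Of the 4 Id genes 3 fell. Id2 measured 9.67, 9.28 and 9.12 at 0 h and 7.88, 7.27 and 7.40 at 12 h, and fell by 1.84 (SE 0.32, adjusted p = 0.000583) or 3.58-fold. Id3, whose promoter window is printed above, measured 11.95, 11.97 and 11.56 at 0 h and 10.60, 9.84 and 9.78 at 12 h and fell by 1.75 (SE 0.29, adjusted p = 0.000263) or 3.37-fold. Id1 measured 10.002, 9.69 and 9.18 at 0 h and 8.64, 7.77 and 7.83 at 12 h and fell by 1.55 (SE 0.34, adjusted p = 0.00550) or 2.92-fold. In each of the 3 genes every 12 h array lay below every 0 h array, and replicate 1 was highest at 12 h. Each call held without any 1 array. Id4, the fourth member of the family, differed by 0.03 (SE 0.18, adjusted p = 0.964). Within the list of Id and other repressors of myogenesis, 5 of 30 measured genes fell and 2 rose, or 6 and 5 with the block, and the list median was 0.03. The other falls were Smad7, an inhibitor of TGF-beta receptor signalling, by 0.77 (SE 0.15, adjusted p = 0.00206), and Twist2, a helix-loop-helix repressor named after its values were seen, by 0.54 (SE 0.15, adjusted p = 0.0301), a call that was lost without each array but 0 h replicate 3 (adjusted p up to 0.190). The 2 rises belong to the Notch pathway, in which a ligand on 1 cell activates a receptor on its neighbour. Dll1, a ligand, measured 6.78, 6.17 and 6.36 at 0 h and 8.07, 7.62 and 7.61 at 12 h and rose by 1.33 (SE 0.30, adjusted p = 0.00886), and Heyl, a transcriptional repressor induced by Notch, measured 7.04, 5.96 and 6.43 at 0 h and 8.01, 7.68 and 7.52 at 12 h and rose by 1.26 (SE 0.32, adjusted p = 0.0217). These were the only 2 calls among 20 measured genes of the Notch list, or 4 rises with the block. Omitting 12 h replicate 1 or 0 h replicate 2 ended both calls, and omitting 12 h replicate 2 or 0 h replicate 3 that of Heyl (adjusted p up to 0.0774 and 0.199).

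**Figure D3:**
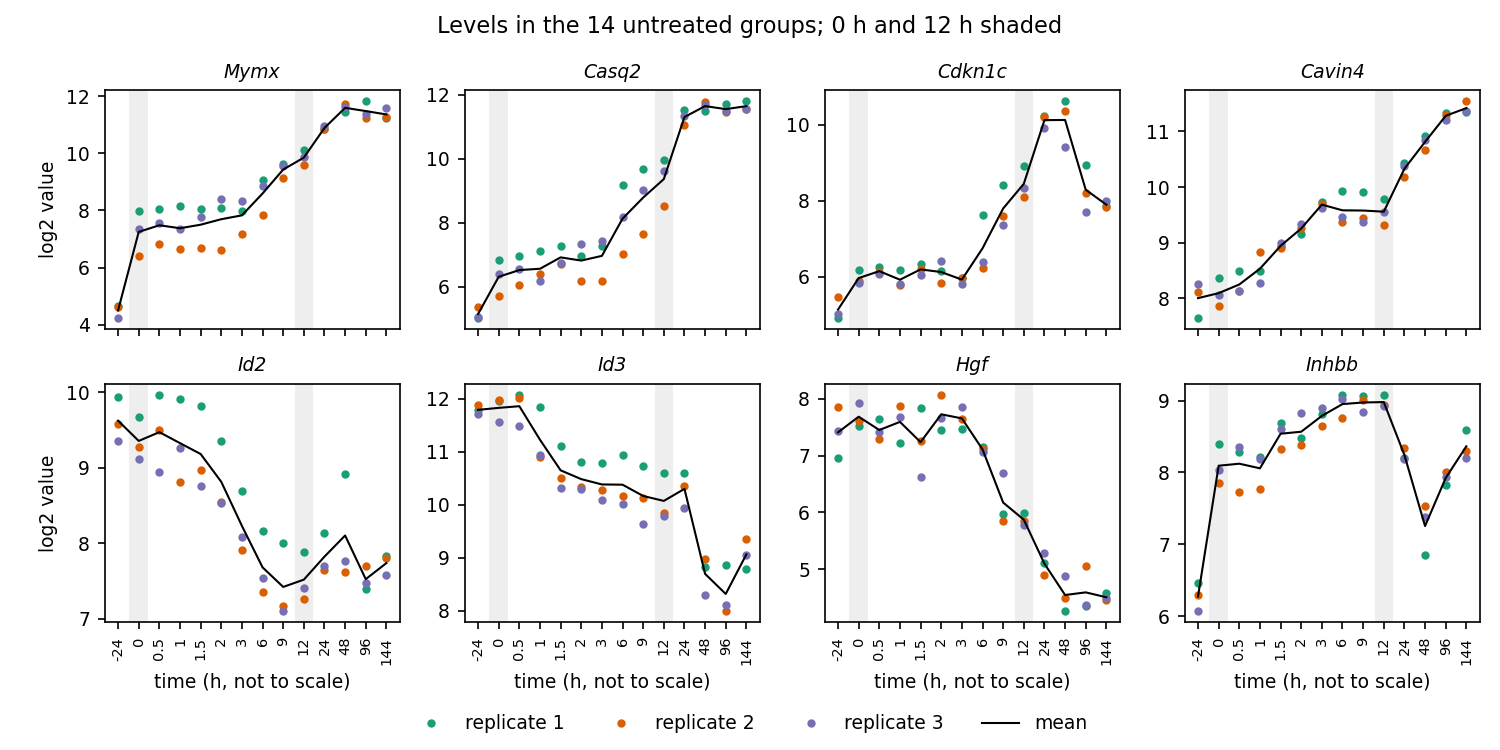
Log2 level of 8 genes in the 14 groups without cycloheximide, with time from -24 h to 144 h on the x axis (not to scale), 1 point per array coloured by replicate number and a line through the means. The grey bands mark 0 h and 12 h, between which Mymx, Casq2, Cdkn1c, Cavin4 and Inhbb were higher at 12 h and Id2, Id3 and Hgf lower.

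Cdkn1c and Cdkn1a, inhibitors of cyclin-dependent kinases, rose, while most genes of replication and division did not pass the test. In the cell cycle exit list 3 of 22 measured genes rose and 0 fell, or 4 and 1 with the block. The other inhibitors in the list were not called. Cdkn1b, Cdkn2a, Cdkn2c and Cdkn2d differed by -0.38, -0.03, -0.22 and -0.59, and Cdkn2b by 0.17. These were outside the naming rule and named after their values were seen. Cdkn1c measured 6.18, 5.89 and 5.83 at 0 h and 8.90, 8.09 and 8.33 at 12 h. The 0 h arrays lay within a narrow range, and the rise of 2.48 (SE 0.30, adjusted p = 2.64e-06) was 5.56-fold and held without any 1 array. Cdkn1a measured 11.03, 9.88 and 10.05 at 0 h and 12.10, 11.32 and 11.37 at 12 h and rose by 1.27 (SE 0.36, adjusted p = 0.0405). Gadd45b, a stress-induced growth arrest gene, rose by 0.90 (SE 0.22, adjusted p = 0.0143). Cdkn1a lost its call without each array but 0 h replicate 1, with only the 6 arrays compared, with trend and robust moderation and on the mean of its probe sets. Omitting 12 h replicate 1, 0 h replicate 2 or 0 h replicate 3 ended the call of Gadd45b (adjusted p over the omissions up to 0.243 and 0.121), and the count of the list was 1 without each of those 3 arrays. In the list of G1 cyclins, E2F and pocket proteins, 1 of 28 measured genes rose (1.19% of all genes) and 0 fell, or 3 and 2 with the block. The rise was in E2f2, an E2F factor of cell cycle gene control, which measured 6.96, 6.54 and 6.82 at 0 h and 8.17, 8.02 and 7.93 at 12 h and rose by 1.26 (SE 0.18, adjusted p = 5.22e-05), a call that held without any 1 array. Ccnd1, the G1 cyclin that responds to growth factors, measured 9.75, 9.48 and 9.67 at 0 h and 9.03, 9.02 and 8.93 at 12 h, lower on all 3 arrays at 12 h, and its difference of -0.64 (SE 0.19, adjusted p = 0.0546) missed the threshold. Ccnd1 passed with the block (adjusted p = 0.0127), with only the 6 arrays compared, on the mean of its probe sets and when genes of low level were left out.

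For mitosis, 0 of 36 measured genes were called by limma, with 21 unadjusted p values under 0.05, against 2449 over all 18193 genes. With the replicate number as a block 2 fell. All 36 differences were below 0, from -1.05 to -0.36 with a median of -0.55, and the 12 h arrays were all below the 0 h arrays for 34 of the 36, against 11.2% of all genes. For DNA replication 1 of 38 measured genes fell (1.63% of all genes) and 0 rose, with 36 of 38 differences below 0 and a median of -0.44. That gene was Mcm4, a subunit of the replicative helicase, which measured 9.13, 9.08 and 9.14 at 0 h and 8.72, 8.36 and 8.40 at 12 h and fell by 0.62 (SE 0.16, adjusted p = 0.0254). Its call was lost without any of the arrays but 12 h replicate 1 (adjusted p up to 0.139) and with centring on housekeeping genes. With the block 5 replication genes fell, and with the block on only the 6 arrays compared 18 did.

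Several growth factors and 1 of their receptors were lower. In the list of growth factors and receptors 5 of 30 measured genes fell and 1 rose, with a median of 0.01. Hgf, hepatocyte growth factor, which activates muscle precursors, measured 7.52, 7.60 and 7.93 at 0 h and 5.98, 5.85 and 5.78 at 12 h. Every 12 h array was below every 0 h array by more than the spread of either group, and Hgf fell by 1.81 (SE 0.25, adjusted p = 3.65e-05) or 3.51-fold. Fgf7, a fibroblast growth factor acting on epithelia, fell by 1.30 (SE 0.28, adjusted p = 0.00496). Pdgfra, a receptor for platelet-derived growth factor, fell by 0.95 (SE 0.21, adjusted p = 0.00836). The vascular growth factors Vegfc and Vegfa fell by 0.76 and 0.70 (adjusted p = 0.0414 and 0.00667). The rise was in Erbb3, a receptor for neuregulin, which measured 5.89, 4.83 and 5.91 at 0 h and 8.18, 7.31 and 8.15 at 12 h and rose by 2.34 (SE 0.46, adjusted p = 0.00240) or 5.05-fold. A second Erbb3 probe set differed by 0.03. Hgf and Erbb3 kept their calls without any 1 array. Omitting 12 h replicate 3 ended the calls of Fgf7 and Vegfa, omitting 0 h replicate 2 that of Vegfa, omitting 0 h replicate 3 that of Pdgfra, and omitting any one of the 6 that of Vegfc (adjusted p up to 0.0566 for Fgf7, 0.0687 for Pdgfra, 0.0946 for Vegfa and 0.181 for Vegfc), which left 2 falls in the list for 12 h replicate 3 and 3 for 0 h replicate 2 or 0 h replicate 3. Vegfc was also not called after quantile, loess or housekeeping scaling, and neither Vegfa nor Vegfc on the mean of their probe sets.

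Other signalling lists held 1 to 3 calls in a direction, where 1.19% of all genes rose and 1.63% fell. Of 19 measured genes of insulin-like growth factor signalling, Igfbp4, a binding protein that holds the factor, rose by 0.97 (SE 0.27, adjusted p = 0.0375) and Grb14, an adaptor that dampens insulin receptor signalling, fell by 0.77 (SE 0.15, adjusted p = 0.00179). Igf2, the ligand made by differentiating myoblasts, measured 10.38, 8.28 and 8.03 at 0 h and 11.33, 9.18 and 9.07 at 12 h. Replicate 1 was far above the other two in both groups, and the difference of 0.96 (SE 0.92, adjusted p = 0.729) was not called. Within the replicate numbers the differences were close to each other, 0.96, 0.90 and 1.04, and the adjusted p was 0.176 with the block over all arrays and 0.00145 with the block on only the 6 arrays compared, where the call was made. Among 34 measured genes of TGF-beta and BMP signalling, Inhbb, a subunit of activin and inhibin, measured 8.39, 7.85 and 8.04 at 0 h and 9.07, 8.94 and 8.92 at 12 h and rose by 0.89 (SE 0.17, adjusted p = 0.00236), Smad3, a signal transducer of the receptors, rose by 0.53 (SE 0.14, adjusted p = 0.0205), and Smad7 fell as given above, or 4 rises and 4 falls with the block. In the Wnt list 3 of 29 rose and 0 fell. Wnt9a, a ligand, measured 5.26, 5.64 and 5.95 at 0 h and 6.84, 6.64 and 6.60 at 12 h and rose by 1.07 (SE 0.17, adjusted p = 0.000224). A second Wnt9a probe set differed by 0.07. Ccn4 and Axin2, both known targets of the pathway, rose by 0.51 and 0.47 (adjusted p = 0.0310 and 0.0455), although the highest 0 h array of Axin2 lay above its lowest 12 h array. Grb14, Inhbb and Wnt9a kept their calls without any 1 array. Igfbp4 lost its call without each array but 0 h replicate 3, Smad3 without each but 12 h replicate 3 and 0 h replicate 1, Ccn4 without each but 0 h replicate 1, and Axin2 without each but 12 h replicate 1 and 0 h replicate 3 (adjusted p up to 0.282 for Igfbp4, 0.132 for Smad3, 0.167 for Ccn4 and 0.338 for Axin2). Axin2 was also not called after quantile or housekeeping scaling, without the cycloheximide arrays or with trend and robust moderation. Smad3, Ccn4 and Axin2 were not called on the mean of their probe sets, Smad3 and Axin2 not with the 6 arrays alone, and Igfbp4 not without probe sets marked for cross-hybridisation.

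The genes of largest fall have varied known roles. Besides the Id genes, Hgf and Fgf7 they were Cd24a, Hpgd, Cthrc1, Kazald1, Plekhg4, Mgst2, Ranbp3l, Cda, Lrrc75b, Aldh1l2, Adgrg3, Enpep, Pla2g7, F3 and Abcc4. Cd24a, a glycosylated surface protein, measured 7.52, 7.997 and 7.73 at 0 h and 5.88, 6.12 and 5.28 at 12 h and fell by 1.99 (SE 0.39, adjusted p = 0.00206) or 3.97-fold. Hpgd, the enzyme that inactivates prostaglandins, measured 5.40, 6.09 and 6.40 at 0 h and 3.998, 4.19 and 4.08 at 12 h and fell by 1.87 (SE 0.37, adjusted p = 0.00215). A second Hpgd probe set differed by -0.01, and the call rested on a probe set marked for possible cross-hybridisation. Kazald1, a secreted protein with a Kazal domain, and Cthrc1, a secreted matrix-associated glycoprotein, fell by 1.76 and 1.82 (adjusted p = 0.000574 and 0.00762). Replicate 3 at 12 h was the lowest array for both, as for most of the 20 genes of largest fall. Cda, cytidine deaminase of pyrimidine salvage, measured 6.88, 6.87 and 6.76 at 0 h and 5.42, 5.40 and 5.46 at 12 h, with little spread in either group, and fell by 1.41 (SE 0.24, adjusted p = 0.000554). Mgst2, a membrane-bound glutathione transferase, measured 6.84, 6.99 and 6.75 at 0 h and 5.39, 5.39 and 5.25 at 12 h and fell by 1.52 (SE 0.25, adjusted p = 0.000411). F3, tissue factor, which starts coagulation, measured 8.15, 8.32 and 8.25 at 0 h and 7.31, 6.74 and 6.75 at 12 h and fell by 1.31 (SE 0.22, adjusted p = 0.000407), and Abcc4, an efflux transporter of cyclic nucleotides and other anions, fell by 1.30 (SE 0.23, adjusted p = 0.000753). The remaining 7 differed by -1.61 to -1.31: Plekhg4, Ranbp3l, Lrrc75b, the mitochondrial folate enzyme Aldh1l2, the adhesion receptor Adgrg3, the aminopeptidase Enpep and the phospholipase Pla2g7, which cleaves platelet-activating factor. For 13 of the 20 genes of largest fall the call held without any 1 array. Without 12 h replicate 3 the calls of Cthrc1, Plekhg4, Aldh1l2, Adgrg3, Enpep, Pla2g7 and Fgf7 were lost, all but the last 2 of them also without 0 h replicate 2, and Enpep and Pla2g7 also without 0 h replicate 1 and, respectively, 12 h replicate 2 and 0 h replicate 3 (adjusted p up to 0.101 for Cthrc1, 0.0968 for Plekhg4, 0.0702 for Aldh1l2, 0.126 for Adgrg3, 0.179 for Enpep, 0.154 for Pla2g7 and 0.0566 for Fgf7).

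**Figure D4:**
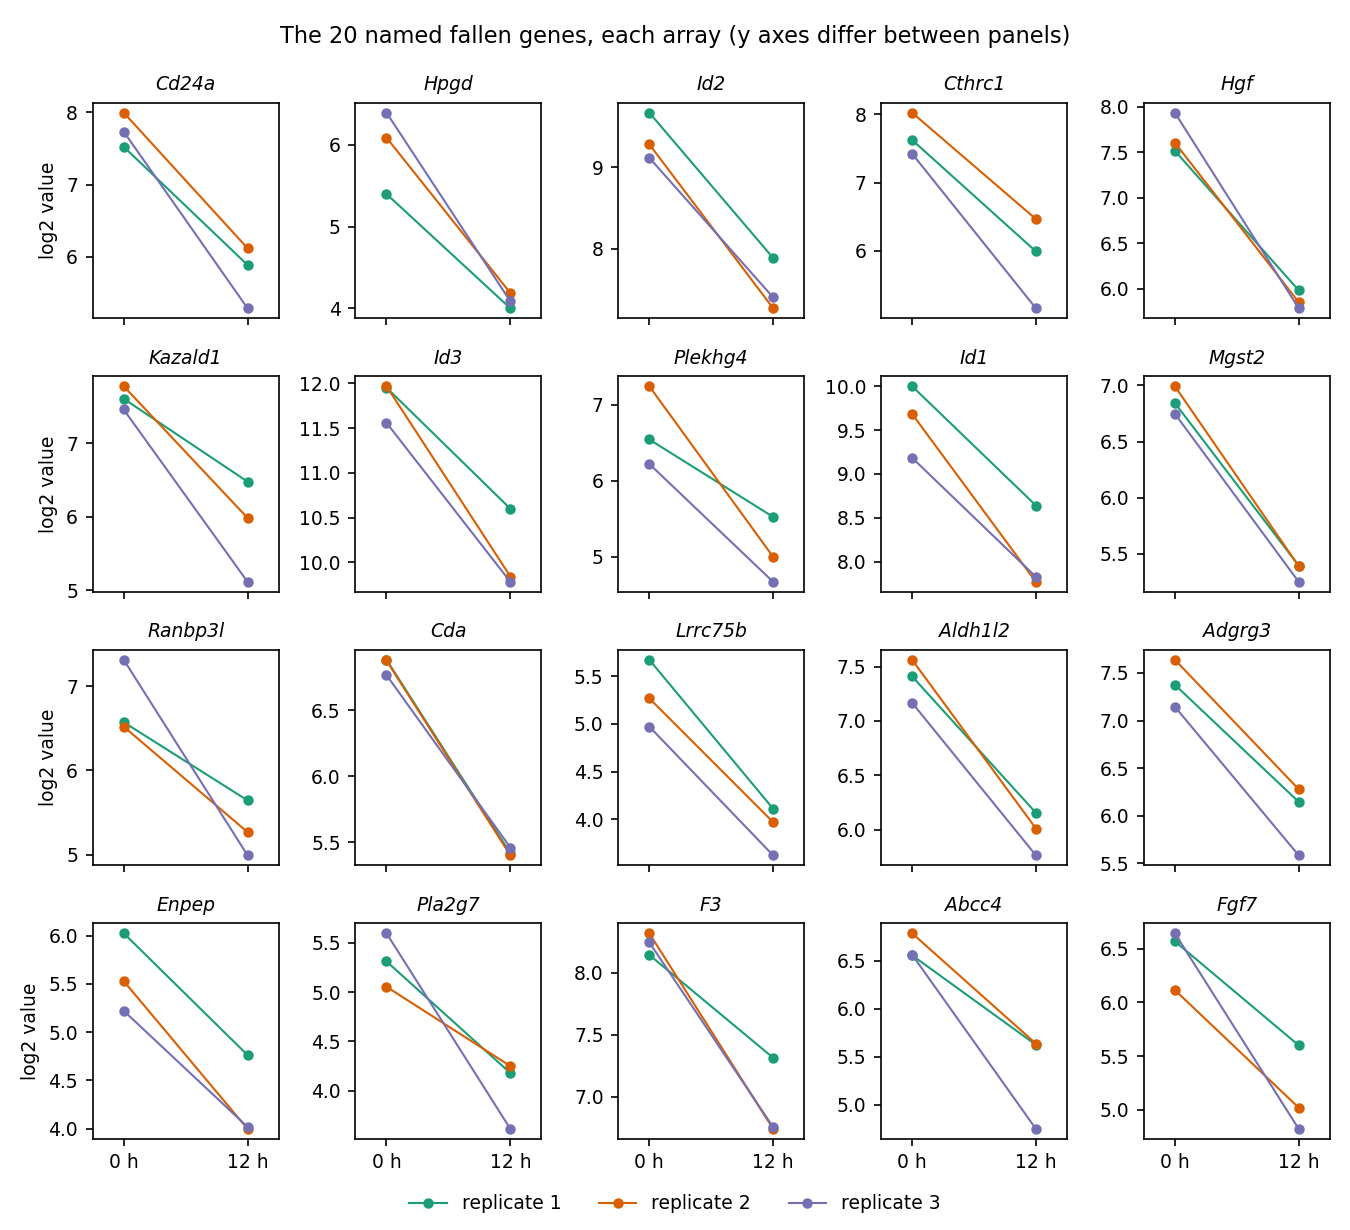
Log2 level of the 20 fallen genes of largest change on each array, with 0 h and 12 h on the x axis, 1 colour per replicate number and lines joining arrays of the same number. These genes were chosen among called genes whose groups did not overlap, so all 3 lines fall in every panel. The 12 h points lie below the 0 h points for the same reason. The full order of the replicate numbers differs between panels, but 12 h replicate 3 is the lowest point in most of them.

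Immediate early genes, which respond to serum and other stimuli through proteins already in the cell, gave 4 falls and 0 rises among 34 measured, with a median of -0.10. Nr4a2, an orphan nuclear receptor, measured 7.03, 6.64 and 6.86 at 0 h and 5.33, 5.93 and 5.41 at 12 h and fell by 1.28 (SE 0.22, adjusted p = 0.000591), and the call held without any 1 array. Of its 6 probe sets 2 differed in the other direction, by 0.20 and 0.07. The AP-1 subunits Fosl1 and Fosl2 fell by 0.81 and 0.46, and Ier5 by 0.38 (adjusted p = 0.0416, 0.0335 and 0.0350). These 3 calls were each lost without at least 4 of the 6 arrays, and after quantile normalization and on the mean of the probe sets, where 1 fall was left in the list, and Fosl2 and Ier5 also after loess and housekeeping scaling. A second Fosl2 probe set differed in the other direction, by 0.12. The list had 2 falls without each array in turn, and without 0 h replicate 1 these were Nr4a2 and Klf10, the latter not called with all arrays (adjusted p up to 0.259 for Fosl1, 0.160 for Fosl2 and 0.215 for Ier5). Fos measured 6.72, 6.82 and 6.998 at 0 h and 7.17, 7.13 and 6.62 at 12 h and Egr1, a zinc finger factor of the same class, 11.15, 11.25 and 11.44 at 0 h and 11.17, 11.23 and 11.17 at 12 h. Their groups overlapped, with differences of 0.13 (SE 0.29, adjusted p = 0.909) and -0.09 (SE 0.15, adjusted p = 0.865). Myc, a driver of growth, differed by -0.11 (SE 0.22, adjusted p = 0.885).

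In the extracellular matrix list 3 of 41 measured genes rose (1.19% of all genes) and 2 fell (1.63% of all genes), or 5 and 3 with the block, with a median of -0.0028. Nid2, a basement membrane linker, Fbln5, a protein of elastic fibres, and the collagen Col5a3 rose by 0.64, 0.62 and 0.55, while Col6a3, a chain of collagen VI, and Thbs2, a thrombospondin, fell by 0.63 and 0.55 (adjusted p = 0.0342, 0.0174, 0.0150, 0.0129 and 0.0488). Each of the 5 lost its call when 1 or another array was left out: Thbs2 lost it without each of the 6, Nid2 without each but 0 h replicate 1, Fbln5 without 12 h replicate 1, 12 h replicate 2 or 0 h replicate 2, Col6a3 without 12 h replicate 1, 12 h replicate 3 or 0 h replicate 2, and Col5a3 without 12 h replicate 1, 0 h replicate 1 or 0 h replicate 3 (adjusted p up to 0.313 for Thbs2, 0.168 for Nid2, 0.159 for Fbln5, 0.0964 for Col6a3 and 0.0901 for Col5a3). With centring on housekeeping genes neither fall was called, and Thbs2 was also lost after quantile or loess normalization. Of 22 measured genes of matrix proteases and inhibitors 2 rose and 0 fell. Both are proteases that cut aggrecan. Adamts5 measured 7.03, 6.47 and 6.74 at 0 h and 8.23, 7.66 and 7.76 at 12 h and rose by 1.13 (SE 0.23, adjusted p = 0.00364), and Adamts4 measured 8.01, 7.43 and 7.37 at 0 h and 8.52, 8.82 and 8.07 at 12 h and rose by 0.87 (SE 0.18, adjusted p = 0.00425). Adamts4 lost its call without 12 h replicate 2 (adjusted p = 0.0565), its highest array, and with only the 6 arrays compared.

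Metabolic and stress lists held few calls. Over all genes 1.19% rose and 1.63% fell, and a single call is not read as a result about its list. Iron uptake and storage had 1 rise among 13 measured genes: Tfrc, the transferrin receptor, measured 7.97, 7.59 and 8.26 at 0 h and 9.40, 8.82 and 9.13 at 12 h and rose by 1.18 (SE 0.29, adjusted p = 0.0170) or 2.26-fold, a call lost without 12 h replicate 1, 12 h replicate 3 or 0 h replicate 2 (adjusted p up to 0.145). In fatty acid synthesis and storage 2 of 18 fell, the malic enzyme Me1 by 0.53 (SE 0.13, adjusted p = 0.0159) and the elongase Elovl5 by 0.45 (SE 0.10, adjusted p = 0.00808). Both calls were lost without 12 h replicate 3, that of Me1 without 0 h replicate 2 and that of Elovl5 without 0 h replicate 1 (adjusted p up to 0.107 and 0.0666), and Elovl5 was not called with centring on housekeeping genes or with the 6 arrays alone. In sterol synthesis and uptake 0 of 24 were called by limma, with 8 unadjusted p values under 0.05, a median of 0.28 and 4 rises with the block. Ribosome biogenesis likewise had 0 of 35 called, 6 unadjusted p values under 0.05, a median of 0.17 and 4 rises with the block. Among all 18193 genes, 2449 had an unadjusted p under 0.05. In hypoxia and glycolysis 1 of 28 fell and 1 rose, or 7 and 1 with the block, with 23 of 28 differences below 0 and a median of -0.27. The fall was that of Vegfa and the rise that of Egln3, a prolyl hydroxylase of the hypoxia pathway, by 0.54 (SE 0.14, adjusted p = 0.0282). The FoxO and atrophy list, of 27, had 1 fall, Cited2, a transcriptional co-regulator, by 0.54 (SE 0.11, adjusted p = 0.00345), and 1 rise, the repressor Bcl6, by 0.72 (SE 0.19, adjusted p = 0.0245), or 4 and 2 with the block. Angptl4, an inhibitor of lipoprotein lipase, was the single rise among 18 glucocorticoid-type targets, by 0.89 (SE 0.24, adjusted p = 0.0314). Its second probe set differed by -0.00129, so its direction turned when cross-hybridising probe sets were left out. Cited2 kept its call without any 1 array and was not called on the mean of its probe sets. Egln3 lost its call without each array but 12 h replicate 2, Bcl6 without each but 12 h replicate 1 and 0 h replicate 3, and Angptl4 without each but 12 h replicate 1 (adjusted p up to 0.133 for Egln3, 0.129 for Bcl6 and 0.157 for Angptl4), and on the mean of the probe sets none of these 3 was called.

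Hsph1, a large heat shock protein, was the single rise among 17 heat shock genes, by 0.64 (SE 0.18, adjusted p = 0.0454). In the circadian clock list, of 19, Noct rose by 0.61 (SE 0.17, adjusted p = 0.0359) and Per3 fell by 1.00 (SE 0.26, adjusted p = 0.0232), and among 37 NF-kB targets and cytokines Tnfaip2 fell by 0.77 (SE 0.20, adjusted p = 0.0204). Since 1.19% of all genes rose and 1.63% fell, these single calls are not read as results about their lists. Hsph1 lost its call without any one of the 6 arrays, Noct without each but 12 h replicate 3, Tnfaip2 without each but 0 h replicate 1, and Per3 without each but 12 h replicate 1 and 0 h replicate 1 (adjusted p up to 0.265 for Hsph1, 0.164 for Noct, 0.113 for Tnfaip2 and 0.207 for Per3). Per3 and Tnfaip2 were not called with centring on housekeeping genes, and Noct not without the cycloheximide arrays. A further Tnfaip2 probe set differed in the other direction, by 0.07. Per3 was also not called with the 6 arrays alone (adjusted p = 0.0526) or on the mean of its 6 probe sets, where it differed by -0.25 (adjusted p = 0.171), and 1 of the 6 differed in the other direction, by 0.23. The unfolded protein and amino acid response (33 measured), the aminoacyl-tRNA synthetases (19) and the interferon response (26) had 0 calls by limma, with 5, 0 and 4 unadjusted p values under 0.05. With the block 3 genes of the first fell.

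**Figure D5:**
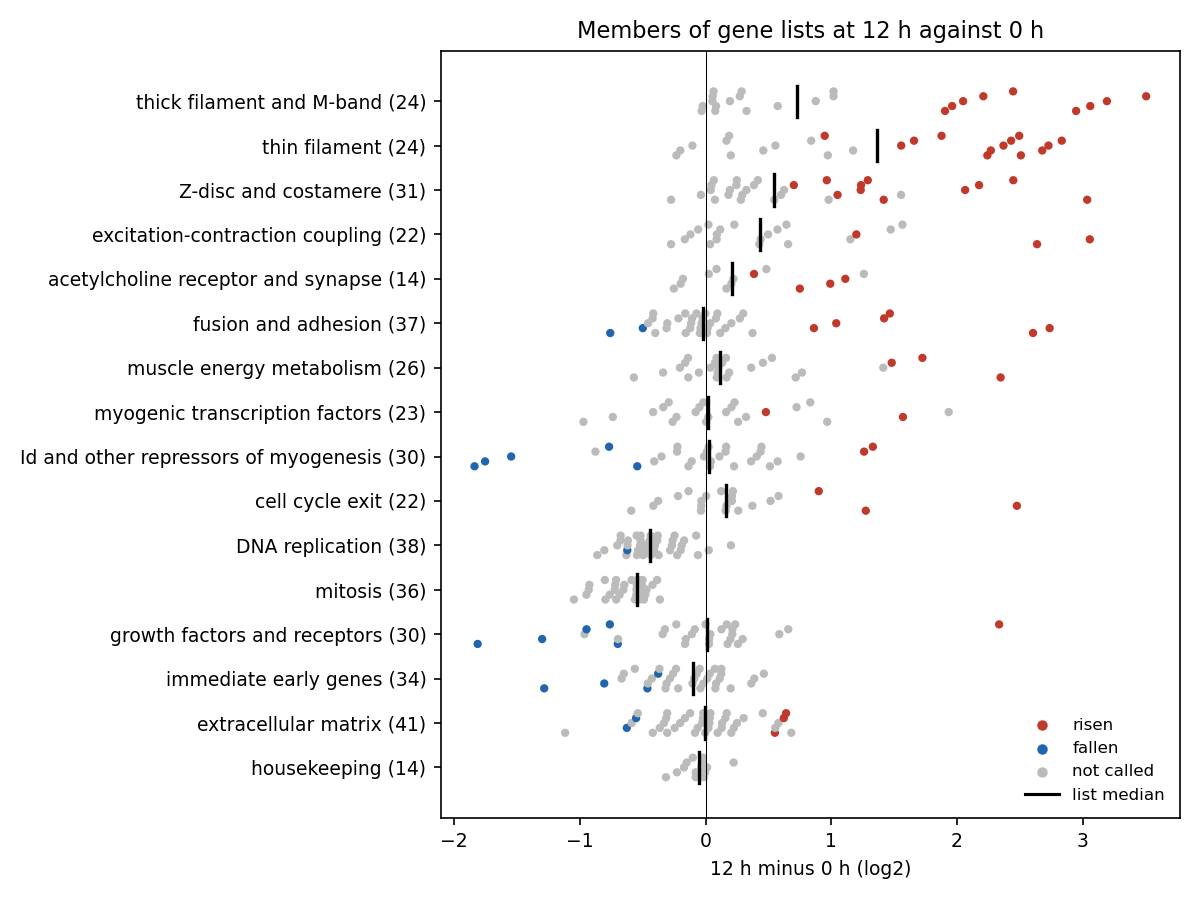
Each point is a measured member of 1 of 16 gene lists, with the log2 difference of 12 h minus 0 h on the x axis, red for risen, blue for fallen and grey for not called, and a black bar at the list median. The thin filament list has the median farthest to the right (1.36) and the mitosis list the one farthest to the left (-0.55), where none of the 36 members is coloured.

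The lists of markers for other cell types, of which that for smooth muscle shares genes with striated muscle, were followed across both groups. The mean over the 20 measured markers of smooth muscle and stress fibres ran from 9.53 to 9.90 at 0 h and from 9.61 to 9.89 at 12 h, that of 10 adipocyte markers from 4.84 to 5.01 and from 4.69 to 4.77, and that of 11 bone and cartilage markers from 4.21 to 4.29 and from 4.23 to 4.43. For leukocytes (9 markers) the means ran from 4.19 to 4.35 at 0 h and 4.24 to 4.37, for endothelium (9) from 3.46 to 3.57 at 0 h and 3.51 to 3.72, and for neural and glial cells (8) from 4.31 to 4.51 at 0 h and 4.48 to 4.66. Only the adipocyte ranges did not overlap. In that list 2 of 10 genes fell with the block, Lpl by 1.28 and Pparg by 0.70, both named after their values were seen. Their part in the results was not tested.

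The neighbouring times were compared directly with 12 h. Against 9 h, limma called 0 genes (0% of those tested), while 646 had an unadjusted p under 0.05 (3.55%), 381 higher and 265 lower at 12 h. The 20 genes of largest rise differed from 9 h by 0.12 to 0.65. Against 12 h, 243 genes were called at 24 h (1.34%), 199 higher (1.09%) and 44 lower (0.242%). The contrasts of 12 h with 0 h and of 24 h with 12 h share the 12 h arrays, so values are given side by side and nothing is read from calls that coincide. Of the 20 genes of largest rise at 12 h, 4 passed the test as higher at 24 h and 16 did not, with a median difference of 1.68 over the 20. Mybph and Myh3 were among those that did not pass, with differences of 1.90 (SE 0.77, adjusted p = 0.334) and 2.07 (SE 0.80, adjusted p = 0.294). Itgb1bp2, 2.45 above 0 h at 12 h, was a further 2.90 (SE 0.50, adjusted p = 0.000441) higher at 24 h. Myl4, Srpk3 and Cdkn1c, 2.95, 2.38 and 2.48 above 0 h, were a further 2.57 (SE 0.59, adjusted p = 0.0127), 2.07 (SE 0.37, adjusted p = 0.000869) and 1.67 (SE 0.30, adjusted p = 0.000869) higher. These 4 muscle and cell cycle genes had 24 h levels of 9.33 ± 0.44, 11.67 ± 0.20, 8.58 ± 0.18 and 10.11 ± 0.17 (SD, n = 3). Cav3 was higher at 24 h by 2.39 (SE 0.26, adjusted p = 2.03e-07), Ckm by 2.56 (SE 0.55, adjusted p = 0.00676) and Actn2 by 2.36 (SE 0.36, adjusted p = 8.03e-05). Inhbb, the activin subunit, turned: from 8.09 ± 0.28 at 0 h it stood higher at 12 h, 8.98 ± 0.08, and came back to 8.24 ± 0.08 by 24 h, a difference from 12 h of -0.74 (SE 0.17, adjusted p = 0.0166). F3, tissue factor, was the 1 gene of the 20 of largest fall that passed at 24 h, differing by a further -0.97 (SE 0.22, adjusted p = 0.0105).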

How the data were processed

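RNA levels were measured on Affymetrix MOE430v2 arrays from Trizol-extracted total RNA, 5 µg per biotinylated cRNA labelling, per the labels' protocols. The values deposited by the authors are log2 levels from RMA, per the submitters' processing notes. The version of RMA, and whether it was run once over the 48 arrays, are not given in the sources used here. They were used as deposited. Of 45101 probe sets, 34945 had exactly 1 gene symbol and covered 18193 genes. For a gene with several, the probe set of highest mean over the 48 arrays was taken. Other probe sets are given for some named genes only, so their absence from the text does not mean that they moved alike.

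A model with a mean for each group was fitted across the 48 arrays with limma 3.58.1 in R 4.3.3 (32 residual degrees of freedom, eBayes at default settings, two-sided), and p-values were adjusted by Benjamini-Hochberg over all genes, with calls under 0.05. The fit was tested on simulated data. In these the arrays varied independently, without an effect of the replicate number, so they cannot show how the fit behaves where such an effect exists. Named are the 20 risen and 20 fallen genes of largest difference among called genes whose groups did not overlap, up to 6 called members of each of 42 gene lists, and a set of myogenic, cell cycle and serum-response genes given whatever their values. A further 16 called genes with clone or small RNA names were not named. The members and lists were chosen with earlier results of these data known. Arrays of the same replicate number deviated together from their group means (correlations of 0.37, 0.35 and 0.33). The correlations between numbers, -0.34 to -0.02, are no separate evidence, since deviations from a group mean cancel within the group. The design also describes growths from successive passages, so the numbers were taken to pair the arrays. Calls without this block are the main result, since the labels state no blocked analysis. Alternatives varied the arrays in the fit, the block, normalization, scaling, moderation, the probe set per gene and a filter on low levels, and left out each array. The p-values measure the spread between these cultures of one line, and with 3 arrays in a group their number limits the precision. RMA values of different probe sets are not compared as amounts.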

Additional observations from a re-analysis of the deposited data

How the results depend on the processing

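The count of genes called at 12 h against 0 h stayed within 1.5 times its value under another set of arrays, normalization, moderation, probe set rule or level filter, apart from the counts given here. The replicate numbers were taken to pair the arrays, and with the replicate block over all 48 arrays 1149 genes were called, 483 risen and 666 fallen. The block on only the 6 arrays gave 1256 calls, 412 risen and 844 fallen. Centring on housekeeping genes gave 178 falls. Leaving out 1 array gave 195 to 382 calls, 76 to 190 rises and 102 to 251 falls. The cause of these shifts was not tested. Among the 109 named genes the block over all arrays changed only the calls of Myog, Myf5 and Ccnd1, which passed, and it changed no other call. The block on only the 6 arrays also added Mef2c and Igf2 and lost Axin2, Chrna1 and Ier5. Angptl4 was the one gene whose direction turned, to -0.00129 without probe sets marked for cross-hybridisation. For 12 h against 9 h every setting gave 0 calls. Dim probe sets limit what can be seen: without genes of mean level under 5, 9514 genes remained, of which 538 were called.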
